A study of Homo sapiens with 2 samples.

Results

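Fatty acids are built in the cytosol from acetyl-CoA, desaturated and elongated at the endoplasmic reticulum, and then either stored as triglyceride in lipid droplets or burned by beta-oxidation in mitochondria. The genes described here are 50 enzymes, carriers and droplet proteins of these routes, chosen by symbol for their known roles, with earlier results of these data known, and matched to the table through their Entrez numbers. All 50 were among the 16021 rows of the table. They were measured by RNA sequencing in HGC-27, a human gastric cancer cell line, in 1 library of cells carrying a DDX5 shRNA and 1 library of cells carrying a non-targeting shRNA. Both cultures had received lentivirus, had been under puromycin from 48 h after transduction, and were taken 1 week later. The targeted gene encodes an RNA helicase of the DEAD-box family with roles in transcription and splicing.

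Fatty acid synthesis starts with ATP-citrate lyase and runs through acetyl-CoA carboxylase and fatty acid synthase. In the liver and in many tumours these enzymes are controlled by the transcription factor SREBP-1, while beta-oxidation genes are known targets of the PPAR family and its coactivators. Beta-oxidation repeats a cycle of dehydrogenation, hydration, a further dehydrogenation and thiolysis, and fatty acids that carry double bonds need auxiliary isomerases and reductases before they can enter it.

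With 1 library in each condition there is no replicate error, no test and no p-value, and the spread between cultures was not measured. Levels are in FPKM, fragment numbers scaled to transcript length and to the size of the library. Log2 ratios are DDX5 shRNA over non-targeting shRNA on FPKM + 1, and "1.5-fold" or "2-fold" in a count refers to that scale. Folds and ratios printed for individual genes are of the FPKM values themselves. Short genes with low values gave an estimate of about 1.49e+07 fragments in the DDX5 shRNA library and 1.47e+07 in the non-targeting library. The 95% intervals below are exact binomial (Clopper-Pearson) intervals on approximate fragment numbers and cover counting error only. DDX5 itself stood at 50.78 FPKM in the DDX5 shRNA library and at 170.5 FPKM in the non-targeting library, or 29.8% of the control level. The label of the cells is gastric adenocarcinoma, and the epithelial markers EPCAM, CDH1 and KRT18 were near 0. EPCAM stood at 0.39 FPKM with the DDX5 shRNA and 0.04 FPKM with the non-targeting shRNA. CDH1 stood at 0.07 FPKM with the DDX5 shRNA and 0.36 FPKM with the non-targeting shRNA, and KRT18 at 0.16 FPKM with the DDX5 shRNA and 0.10 FPKM with the non-targeting shRNA. KRT8 stood at 1.31 FPKM with the DDX5 shRNA and 5.24 FPKM with the non-targeting shRNA, and KRT19 was not analysed here. The mesenchymal filament gene VIM was at 1271 FPKM with the DDX5 shRNA and 1584 FPKM with the non-targeting shRNA. CDH2, also mesenchymal, was at 0 FPKM with the DDX5 shRNA and 0.07 FPKM with the non-targeting shRNA. The mesenchymal gene FN1 was at 5.99 FPKM with the DDX5 shRNA and 4.76 FPKM with the non-targeting shRNA. Of 6 fibroblast genes, 4 were above 50 FPKM in both libraries (COL1A1, COL3A1, LUM and DCN), and COL3A1 and DCN were higher with the DDX5 shRNA, at 944 and 140.7 FPKM, than with the non-targeting shRNA, at 482 and 68.13 FPKM. COL1A2 was at 6.02 FPKM with the DDX5 shRNA and 2.52 FPKM with the non-targeting shRNA, and PDGFRB at 0.28 FPKM with the DDX5 shRNA and 0.56 FPKM with the non-targeting shRNA. The part of these differences in the results below was not tested, and in bulk RNA a change in the mix of cells and a change in level per cell cannot be told apart. The adipocyte gene PLIN1 was at 0.05 FPKM with the DDX5 shRNA and 0.07 FPKM with the non-targeting shRNA, and CIDEC was at 1.72 FPKM with the DDX5 shRNA and 0.75 FPKM with the non-targeting shRNA.

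Most of the genes past the filter, 32 of 43, were within 1.5-fold, and members of the same step often differed in direction. Higher with the DDX5 shRNA and past 1.5-fold were DECR1, ECI1, HADHA, HADHB and ETFB of mitochondrial beta-oxidation. The desaturase genes FADS1 and FADS3, the storage gene DGAT2 and the lipase gene PNPLA2 were also past 1.5-fold on this side. On the lower side only the synthesis gene FASN and the droplet coat gene PLIN3 passed 1.5-fold. The synthesis gene ACLY and the carrier gene FABP5 were lower but short of 1.5-fold, with log2 ratios of -0.56 and -0.50. FADS2 was higher but also short of 1.5-fold, with a log2 ratio of 0.25. Of the 50 genes, 43 had a mean of at least 1 FPKM over both libraries and entered the counts. Of these 43 genes, 1 was at least 2-fold higher, against 4.19% of all 11413 genes past the same filter, and 0 were at least 2-fold lower, against 2.26% of all genes. At 1.5-fold, 9 of 43 (20.9%) were higher, against 13.1% of all genes, and 2 of 43 (4.65%) were lower, against 10.1% of all genes. With both columns rescaled to the same total FPKM, 7 genes passed 1.5-fold on the higher side and 4 on the lower side, beside 10.1% and 14.3% of all genes. The median log2 ratio of the 43 genes was 0.11, beside 0.02 for all genes past the filter, whose quartiles were -0.28 and 0.35. Just inside 1.5-fold lay HADHA at 0.61 on the higher side and FASN at -0.59 on the lower side, and just outside lay MGLL at 0.40 and ACLY at -0.56. The remaining 7 genes, ELOVL5, ELOVL7, ACSL5, CPT1C, PLIN2, LIPE and CD36, were at or below 0.45 FPKM in both libraries.

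**Figure D1:**
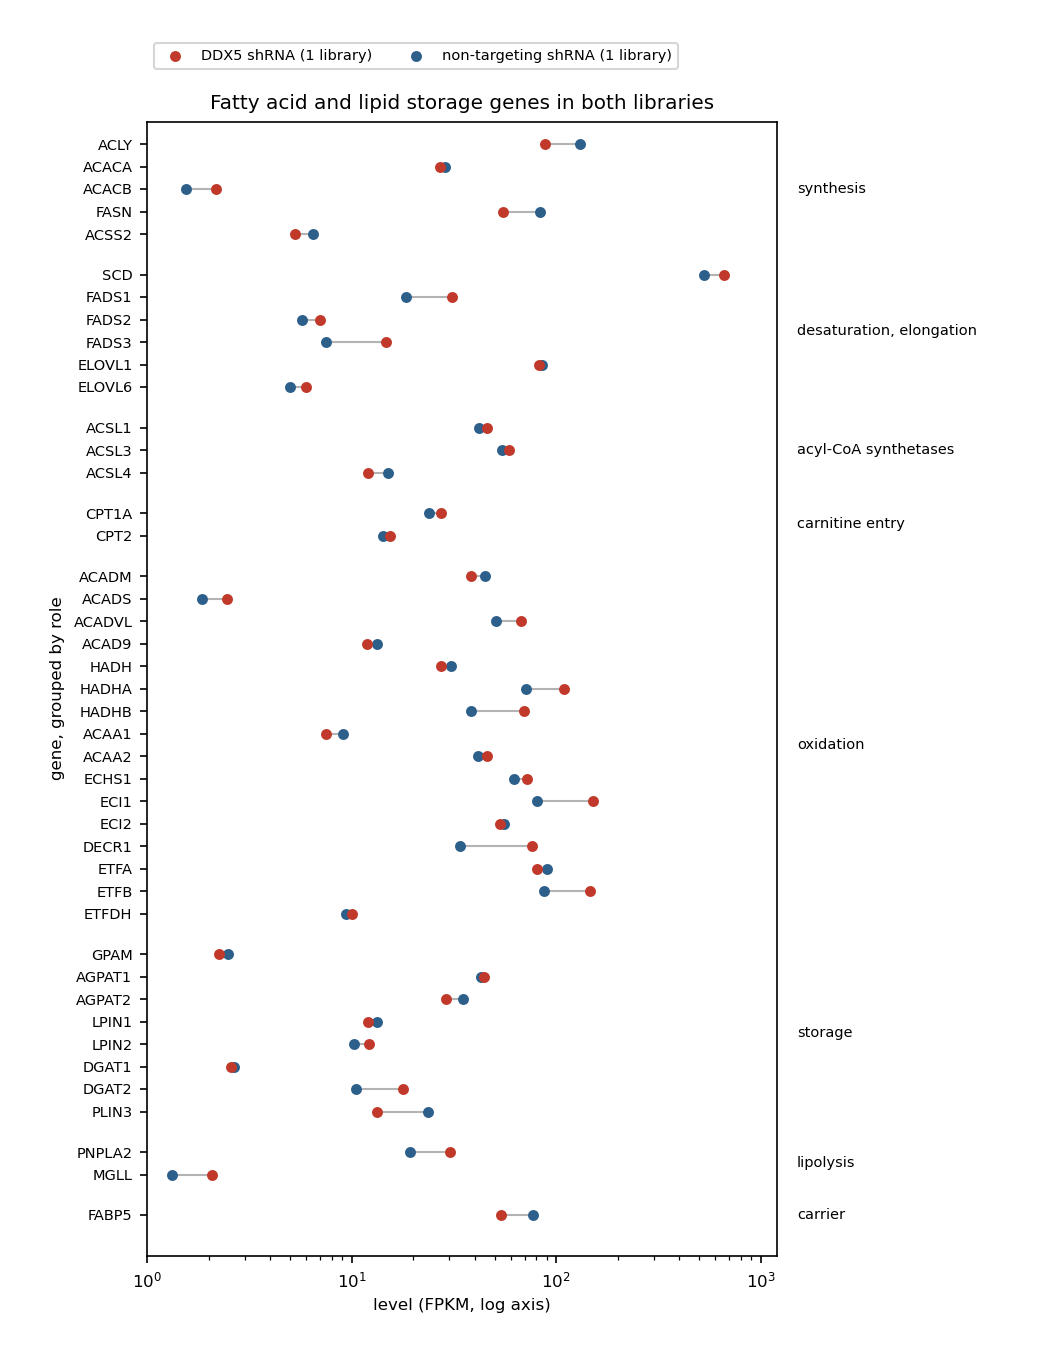
Level of the 43 genes with a mean of at least 1 FPKM, on a log axis in FPKM, by role; red points are the DDX5 shRNA library and blue points the non-targeting library, with 1 library each and no error bars. Red lies clearly right of blue for FADS1, FADS3, HADHA, HADHB, ECI1, DECR1, ETFB, DGAT2, PNPLA2 and MGLL, and left of it for ACLY, FASN, PLIN3 and FABP5.

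The summed level of the 50 genes was 2328 FPKM in the DDX5 shRNA library and 2009 FPKM in the non-targeting library, which is 0.391% of total FPKM with the DDX5 shRNA and 0.366% with the non-targeting shRNA. One gene held much of this sum. SCD, stearoyl-CoA desaturase, which makes oleate from stearate, took 28.3% of it with the DDX5 shRNA and 26.2% with the non-targeting shRNA, and ranked 121 by mean level among all 11413 genes. Without SCD the sums were 1668 FPKM in the DDX5 shRNA library and 1482 FPKM in the non-targeting library. The 16 oxidation genes summed to 969 FPKM in the DDX5 shRNA library and 721 FPKM in the non-targeting library, whereas the 5 synthesis genes summed to 178 FPKM with the DDX5 shRNA and 251 FPKM with the non-targeting shRNA. The largest differences in FPKM were those of ECI1, ETFB, DECR1, HADHA and HADHB among the oxidation genes and of ACLY and FASN among the synthesis genes. Within 1.5-fold were 11 of the 16 and 4 of the 5 genes, so the sums do not describe a shift of every gene.

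The 5 synthesis genes were lower or close to level in the DDX5 shRNA library, with the exception of ACACB. ACLY, which cleaves citrate to cytosolic acetyl-CoA, stood at 88.13 FPKM with the DDX5 shRNA and 130.68 FPKM with the non-targeting shRNA, a ratio of 0.674 (interval 0.652 to 0.698). FASN, the multi-domain synthase that makes palmitate, stood at 55.07 FPKM with the DDX5 shRNA and 83.33 FPKM with the non-targeting shRNA, a ratio of 0.661 (interval 0.641 to 0.681). The first and last enzymes of the route were thus lower by nearly the same factor. ACACA, the cytosolic acetyl-CoA carboxylase between them, was almost level at 27.04 FPKM with the DDX5 shRNA and 28.71 FPKM with the non-targeting shRNA. Its relative ACACB, at the outer mitochondrial membrane, where its product malonyl-CoA inhibits carnitine palmitoyltransferase, was weakly expressed at 2.17 FPKM with the DDX5 shRNA and 1.55 FPKM with the non-targeting shRNA. ACACA exceeded ACACB 12.5-fold in FPKM with the DDX5 shRNA and 18.5-fold with the non-targeting shRNA. ACSS2, which makes acetyl-CoA from acetate, was a minor gene at 5.26 FPKM with the DDX5 shRNA and 6.5 FPKM with the non-targeting shRNA. The median log2 ratio of the 5 genes was -0.26.

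The desaturases went the other way. SCD stood at 660 FPKM with the DDX5 shRNA and 527 FPKM with the non-targeting shRNA, a 1.25-fold higher level (interval 1.24 to 1.27). FADS1 and FADS2, the front-end desaturases of polyunsaturated fatty acid synthesis, and FADS3, which desaturates sphingoid bases, are neighbours on chromosome 11, and all 3 were higher in the DDX5 shRNA library. FADS1 stood at 31.1 FPKM with the DDX5 shRNA and 18.43 FPKM with the non-targeting shRNA, 1.69-fold higher (interval 1.57 to 1.81). FADS3 stood at 14.73 FPKM with the DDX5 shRNA and 7.53 FPKM with the non-targeting shRNA, 1.96-fold higher (interval 1.63 to 2.35). FADS2 between them was 1.23-fold higher (interval 1.03 to 1.46), at 7 FPKM with the DDX5 shRNA and 5.71 FPKM with the non-targeting shRNA. In log2 ratio this is 0.25 for FADS2, beside 0.72 and 0.88 for its neighbours. FADS2 and SCD, the latter at 0.32, lay below the upper quartile of all genes past the filter, 0.35. Because FASN was lower and SCD higher, the level of SCD was 12.0 times that of FASN in the DDX5 shRNA library and 6.32 times in the non-targeting library.

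The elongases were nearly level. ELOVL1, which extends saturated very-long-chain fatty acids, stood at 82.37 FPKM with the DDX5 shRNA and 85.49 FPKM with the non-targeting shRNA, and ELOVL6, which extends palmitate to stearate, at 6.01 FPKM with the DDX5 shRNA and 5.02 FPKM with the non-targeting shRNA. ELOVL5, the main elongase of polyunsaturated fatty acids, was listed at only 0.45 FPKM with the DDX5 shRNA and 0.40 FPKM with the non-targeting shRNA, or about 18.3 fragments with the DDX5 shRNA and 16 with the non-targeting shRNA. ELOVL7 was at 0.11 FPKM with the DDX5 shRNA and 0.09 FPKM with the non-targeting shRNA. The 6 desaturation and elongation genes past the filter had a median log2 ratio of 0.29, with 2 past 1.5-fold on the higher side and 0 on the lower side, beside 13.1% and 10.1% of all genes, and 6 genes are too few to read a share from.

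The RefSeq promoter window of FADS3, 250 bases before to 50 after the gene start, is shown because this gene had the highest ratio of the FADS genes and its window holds the CCAAT box on both strands (GRCh38.p14, chr11:61891496-61891795, minus strand). The capitals mark CCAAT and its reverse complement.
FADS3: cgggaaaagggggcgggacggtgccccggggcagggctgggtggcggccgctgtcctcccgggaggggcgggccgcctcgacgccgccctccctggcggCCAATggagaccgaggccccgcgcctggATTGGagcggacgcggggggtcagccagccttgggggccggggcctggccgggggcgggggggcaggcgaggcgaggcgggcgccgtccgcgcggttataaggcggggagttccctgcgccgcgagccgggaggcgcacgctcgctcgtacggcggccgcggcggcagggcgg
The letters CCAAT occur, on either strand, in the windows of 20 of the 42 genes that have a window in this table (47.6%), and in those of 39.7% of all 27305 genes with a window. The 5 letters can be part of longer motifs, and a match is a description of the sequence only.

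Long-chain acyl-CoA synthetases, which activate fatty acids for every later use, hardly differed. ACSL3, the enzyme of the endoplasmic reticulum and lipid droplets, led with 58.85 FPKM with the DDX5 shRNA and 54.43 FPKM with the non-targeting shRNA. ACSL1 stood at 46.08 FPKM with the DDX5 shRNA and 41.71 FPKM with the non-targeting shRNA. ACSL4, which prefers arachidonate, was lower, at 12.09 FPKM with the DDX5 shRNA and 14.98 FPKM with the non-targeting shRNA, a ratio of 0.807 (interval 0.739 to 0.882). ACSL5 was listed at 0.02 FPKM with the DDX5 shRNA and at 0 with the non-targeting shRNA. The carnitine palmitoyltransferases were also within 1.5-fold. CPT1A, the outer membrane transferase that admits long-chain fatty acids to mitochondria, stood at 27.41 FPKM with the DDX5 shRNA and 23.82 FPKM with the non-targeting shRNA, and its inner membrane partner CPT2 at 15.47 FPKM with the DDX5 shRNA and 14.24 FPKM with the non-targeting shRNA. CPT1C, a form known from neurons, was at 0.25 FPKM with the DDX5 shRNA and 0.08 FPKM with the non-targeting shRNA.

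Within beta-oxidation, 5 of 16 genes were at least 1.5-fold higher with the DDX5 shRNA (31.2%, beside 13.1% of all genes). They were DECR1, ECI1, HADHB, ETFB and HADHA, and 0 of 16 were at least 1.5-fold lower, beside 10.1% of all genes. These 16 genes are few to read a share from. Of 21 other oxidation genes past the filter, taken from the wider list described below, 2 (9.52%) were at least 1.5-fold higher and 0 lower. Their median log2 ratio was 0.03. DECR1, the mitochondrial dienoyl-CoA reductase needed for polyunsaturated fatty acids, stood at 75.75 FPKM with the DDX5 shRNA and 33.78 FPKM with the non-targeting shRNA, 2.24-fold higher (interval 2.03 to 2.49). It was the only one of the 50 genes at least 2-fold apart on FPKM + 1, and its log2 ratio of 1.14 exceeded that of 97.0% of all genes past the filter. ECI1, the mitochondrial enoyl-CoA isomerase that moves double bonds of unsaturated fatty acids, came next at 151 FPKM with the DDX5 shRNA and 80.14 FPKM with the non-targeting shRNA, 1.88-fold higher (interval 1.76 to 2.02). ECI2, a further isomerase, found in mitochondria and peroxisomes, was level at 53.31 FPKM with the DDX5 shRNA and 55.88 FPKM with the non-targeting shRNA.

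HADHA and HADHB encode the alpha and beta subunits of the mitochondrial trifunctional protein, which carries the last steps of the long-chain cycle at the inner membrane. HADHA stood at 109.77 FPKM with the DDX5 shRNA and 71.58 FPKM with the non-targeting shRNA, 1.53-fold higher (interval 1.47 to 1.61). HADHB stood at 69.96 FPKM with the DDX5 shRNA and 38.36 FPKM with the non-targeting shRNA, 1.82-fold higher (interval 1.69 to 1.97). Both subunit genes were higher, and the level of HADHA was 1.57 times that of HADHB with the DDX5 shRNA and 1.87 times with the non-targeting shRNA. Of the 50-base windows of the HADHA transcript, 7.02% also occur in a transcript of another gene, mostly in HADHAP2, so a small part of its reads could be divided.

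The pair lies head to head on chromosome 2, and the promoter windows of both genes are shown because they overlap and both genes were higher (RefSeq, GRCh38.p14; HADHA chr2:26244583-26244882, minus strand; HADHB chr2:26244689-26244988, plus strand). The capitals mark the 194 bases that both windows share, which read as reverse complements of each other.
HADHA: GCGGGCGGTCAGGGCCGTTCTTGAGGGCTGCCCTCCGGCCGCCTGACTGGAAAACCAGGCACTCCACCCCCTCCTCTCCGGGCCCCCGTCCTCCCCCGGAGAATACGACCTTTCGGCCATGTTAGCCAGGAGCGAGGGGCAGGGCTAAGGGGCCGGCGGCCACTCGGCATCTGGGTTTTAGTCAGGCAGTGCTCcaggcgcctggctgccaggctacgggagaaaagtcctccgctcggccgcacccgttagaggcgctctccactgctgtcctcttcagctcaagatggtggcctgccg
HADHB: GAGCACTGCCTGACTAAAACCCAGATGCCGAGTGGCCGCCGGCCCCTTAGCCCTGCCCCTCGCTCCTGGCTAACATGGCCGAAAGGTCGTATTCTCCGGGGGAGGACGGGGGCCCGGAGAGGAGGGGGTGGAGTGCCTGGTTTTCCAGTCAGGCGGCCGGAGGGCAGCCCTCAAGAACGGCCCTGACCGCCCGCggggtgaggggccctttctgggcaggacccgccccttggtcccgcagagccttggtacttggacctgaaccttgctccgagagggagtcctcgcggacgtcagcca
Neither window holds the CCAAT letters, the E-box letters CACGTG, the SREBP site form TCACNCCAC, the ATF4 composite form TGATGNAAN or the direct repeat known for PPAR on either strand. This concerns these windows and letters only. Of the 42 genes of the pathway with a window, 4 held the E-box (9.52%, beside 8.77% of all 27305 genes with a window) and 2 the SREBP letters (4.76%, beside 1.39%). The ATF4 and PPAR letters were found for 0 of the 42 genes (beside 4.45% and 0.0293%). The 27305 genes were not filtered by level, and 2 genes are too few to read a share from.

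The electron transfer flavoprotein, which takes electrons from the mitochondrial acyl-CoA dehydrogenases, showed unequal subunits. ETFB stood at 146.19 FPKM with the DDX5 shRNA and 87.28 FPKM with the non-targeting shRNA, 1.67-fold higher (interval 1.60 to 1.76), whereas ETFA stood at 80.52 FPKM with the DDX5 shRNA and 90.55 FPKM with the non-targeting shRNA, a ratio of 0.889 (interval 0.837 to 0.944). The level of ETFB was therefore 1.82 times that of ETFA in the DDX5 shRNA library and 0.964 times in the non-targeting library. Of the windows of the ETFB transcript, 12.0% also occur in transcripts of other genes, 8.26% in the overlapping model AC008750.8. ETFDH, the oxidoreductase that hands these electrons to ubiquinone, was at 10.03 FPKM with the DDX5 shRNA and 9.34 FPKM with the non-targeting shRNA.

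The acyl-CoA dehydrogenases of the first step did not share a direction. ACADVL, for very long chains, stood at 67.09 FPKM with the DDX5 shRNA and 50.9 FPKM with the non-targeting shRNA, 1.32-fold higher (interval 1.23 to 1.41). ACADM, for medium chains, was at 38.53 FPKM with the DDX5 shRNA and 44.7 FPKM with the non-targeting shRNA, a ratio of 0.862 (interval 0.799 to 0.930). ACADS, for short chains, was weakly expressed at 2.47 FPKM with the DDX5 shRNA and 1.85 FPKM with the non-targeting shRNA. ACAD9, which also serves in complex I assembly, was at 11.84 FPKM with the DDX5 shRNA and 13.29 FPKM with the non-targeting shRNA.

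The matrix enzymes for shorter chains were close to level. ECHS1, the short-chain hydratase, was at 71.62 FPKM with the DDX5 shRNA and 62.41 FPKM with the non-targeting shRNA, and HADH, the short-chain hydroxyacyl-CoA dehydrogenase, at 27.48 FPKM with the DDX5 shRNA and 30.65 FPKM with the non-targeting shRNA. ACAA2, the mitochondrial thiolase, was at 45.69 FPKM with the DDX5 shRNA and 41.25 FPKM with the non-targeting shRNA, and 20.5% of its windows also occur in transcripts of other genes. ACAA1, the peroxisomal thiolase, was at 7.48 FPKM with the DDX5 shRNA and 9.08 FPKM with the non-targeting shRNA (ratio 0.824), with an interval, 0.668 to 1.01, that includes equal levels. The 16 oxidation genes had a median log2 ratio of 0.17, with 10 above 0 (62.5%, beside 52% of all genes) and 6 below. At the same total FPKM their median was 0.06 and 9 were above 0, beside a median of -0.08 over all genes.

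**Figure D2:**
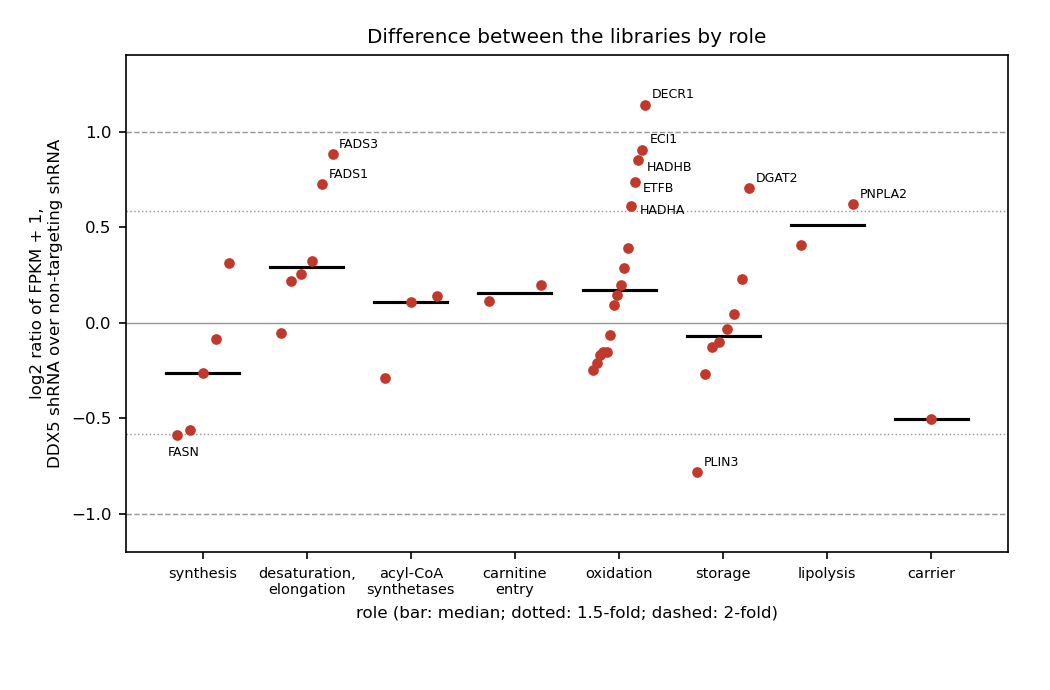
Log2 ratio of FPKM + 1, DDX5 shRNA over non-targeting shRNA, for each of the 43 genes by role; bars are medians over genes, dotted lines 1.5-fold and dashed lines 2-fold, and each point rests on 1 library per condition. The oxidation genes spread from -0.25 to 1.14 with DECR1 at the top, and 4 of 5 synthesis genes lie below 0.

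Triglyceride assembly was within 1.5-fold at most steps, with DGAT2 and PLIN3 apart in opposite directions. GPAM, the mitochondrial acyltransferase of the first step, was weakly expressed at 2.25 FPKM with the DDX5 shRNA and 2.49 FPKM with the non-targeting shRNA. AGPAT1, which makes phosphatidic acid, was at 44.47 FPKM with the DDX5 shRNA and 42.99 FPKM with the non-targeting shRNA. Its relative AGPAT2 was at 28.87 FPKM with the DDX5 shRNA and 34.96 FPKM with the non-targeting shRNA, a ratio of 0.826 (interval 0.738 to 0.924). The phosphatidate phosphatases LPIN1, at 12.08 FPKM with the DDX5 shRNA and 13.3 FPKM with the non-targeting shRNA, and LPIN2, at 12.18 FPKM with the DDX5 shRNA and 10.23 FPKM with the non-targeting shRNA, were near each other in level.

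The final acyltransferases differed from each other. DGAT2, which uses newly made fatty acids for triglyceride, stood at 17.83 FPKM with the DDX5 shRNA and 10.56 FPKM with the non-targeting shRNA, 1.69-fold higher (interval 1.48 to 1.93). DGAT1, a separate enzyme of the same reaction, stood at 2.57 FPKM with the DDX5 shRNA and 2.65 FPKM with the non-targeting shRNA (ratio 0.97, interval 0.757 to 1.23). The level of DGAT2 was 6.94 times that of DGAT1 in the DDX5 shRNA library and 3.98 times in the non-targeting library.

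Of the droplet coat genes, PLIN3, a perilipin that moves between cytosol and young droplets, had the lowest log2 ratio of the 43 genes, -0.78. It stood at 13.29 FPKM with the DDX5 shRNA and 23.56 FPKM with the non-targeting shRNA, a ratio of 0.564 (interval 0.498 to 0.639), and 4.96% of all genes past the filter had a lower ratio. PLIN2, the droplet coat protein of most cells, was listed at 0.11 FPKM with the DDX5 shRNA and 0.07 FPKM with the non-targeting shRNA, or about 3.03 fragments with the DDX5 shRNA and 1.90 with the non-targeting shRNA, so no difference was detectable at this depth. Whether such near-zero values, those of ELOVL5, EPCAM, CDH1 and KRT18 included, reflect the cells or the authors' quantification was not tested. The 8 storage genes past the filter had a median log2 ratio of -0.07.

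Breakdown of stored fat was represented mainly by PNPLA2, the adipose triglyceride lipase that removes the first fatty acid. It stood at 30.28 FPKM with the DDX5 shRNA and 19.35 FPKM with the non-targeting shRNA, 1.56-fold higher (interval 1.42 to 1.73). At the same total FPKM it was no longer 1.5-fold apart, and the same held for HADHA. MGLL, the monoglyceride lipase of the last step, stood at 2.07 FPKM with the DDX5 shRNA and 1.32 FPKM with the non-targeting shRNA, 1.57-fold in FPKM (interval 1.19 to 2.08) but 0.40 in log2 ratio of FPKM + 1. LIPE, the hormone-sensitive lipase between them, was at 0.02 FPKM with the DDX5 shRNA and 0.05 FPKM with the non-targeting shRNA.

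One RefSeq window of PNPLA2 (GRCh38.p14, chr11:818664-818963, plus strand) is shown because PNPLA2 is, beside ACSL1, the only gene of the pathway with the SREBP letters in a window. The capitals mark the match, on the opposite strand.
PNPLA2: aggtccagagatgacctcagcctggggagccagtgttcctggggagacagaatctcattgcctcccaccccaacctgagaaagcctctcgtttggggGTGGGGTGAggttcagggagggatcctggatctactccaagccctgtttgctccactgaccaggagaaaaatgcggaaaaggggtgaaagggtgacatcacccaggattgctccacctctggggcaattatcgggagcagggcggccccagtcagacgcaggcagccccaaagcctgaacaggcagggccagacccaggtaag

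Fatty acid carriers were represented by FABP5, the epidermal fatty acid binding protein, at 53.83 FPKM with the DDX5 shRNA and 76.71 FPKM with the non-targeting shRNA, a ratio of 0.702 (interval 0.629 to 0.781). Its value is uncertain, since 30.9% of its windows also occur in other transcripts, mainly the pseudogene FABP5P7. The surface transporter gene CD36 was at 0.20 FPKM with the DDX5 shRNA and 0.34 FPKM with the non-targeting shRNA.

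**Figure D3:**
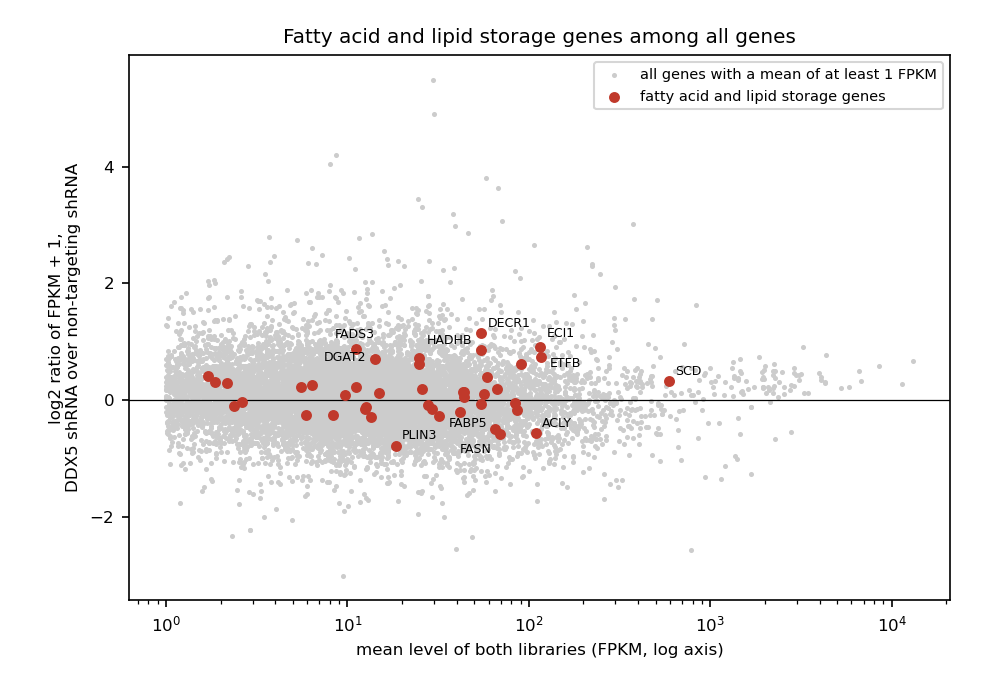
Log2 ratio of FPKM + 1 against mean level in FPKM (log axis) for all 11413 genes with a mean of at least 1 FPKM (grey) and the 43 fatty acid and lipid storage genes (red), 1 library per condition. The red points lie inside the grey cloud, from -0.78 for PLIN3 to 1.14 for DECR1.

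Of a wider list of 117 lipid genes outside the 50, 106 had values, 78 passed the filter and 11 were not analysed here. Of these 78 genes, 2 passed 2-fold on the higher side and 0 on the lower side, 10 passed 1.5-fold on the higher side and 4 on the lower side, and their median log2 ratio was 0.04. These shares lay near or below those of all genes, with 2.56% beside 4.19% at 2-fold higher, 12.8% beside 13.1% at 1.5-fold higher and 5.13% beside 10.1% at 1.5-fold lower. The 2 genes at least 2-fold higher were ACAD11, an acyl-CoA dehydrogenase of very long chains, at 12.34 FPKM with the DDX5 shRNA and 3.55 FPKM with the non-targeting shRNA (log2 ratio 1.55), and ACSS3, a mitochondrial short-chain acyl-CoA synthetase, at 7.04 FPKM with the DDX5 shRNA and 1.82 FPKM with the non-targeting shRNA (log2 ratio 1.51). With a pseudocount of 5 the log2 ratio of ACSS3 was 0.82, short of 2-fold, and that of ACAD11 was 1.02. The 4 genes at least 1.5-fold lower, named after their values were seen, were the acyl-CoA binding protein gene DBI, the sterol acyltransferase gene SOAT1, the thioesterase gene ACOT7 and the mitochondrial transacylase gene MCAT. DBI stood at 154.83 FPKM with the DDX5 shRNA and 304.35 FPKM with the non-targeting shRNA, a log2 ratio of -0.97.

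The wider list holds regulators, not all of which are transcription factors. Of these, 3 of 17 genes past the filter (17.6%, near the 13.1% of all genes) were at least 1.5-fold higher and 0 lower, beside 10.1% of all genes. Named after their values were seen, they were INSIG2 and MBTPS2, which take part in SREBP processing, and MID1IP1, an activator of acetyl-CoA carboxylase, with log2 ratios of 0.89, 0.64 and 0.59. Of the 17 genes, 11 were above 0 (64.7%, beside 52% of all genes) and 6 below. The lowest, also named after their values were seen, were MLXIP at -0.54, PPARGC1B at -0.44, MLX at -0.43 and INSIG1 at -0.30. SREBF1, the gene of SREBP-1, stood at 86.57 FPKM with the DDX5 shRNA and 71.6 FPKM with the non-targeting shRNA, and SREBF2 at 60.15 FPKM with the DDX5 shRNA and 50.97 FPKM with the non-targeting shRNA. The PPAR gene of highest level was PPARD, at 9.72 FPKM with the DDX5 shRNA and 9.88 FPKM with the non-targeting shRNA. PPARA was at 2.13 FPKM with the DDX5 shRNA and 1.56 FPKM with the non-targeting shRNA, and PPARG, PPARGC1A and MLXIPL were at or below 0.65 FPKM in both libraries.

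The carrier SLC25A20, which brings acylcarnitines across the inner mitochondrial membrane, stood at 11.18 FPKM with the DDX5 shRNA and 7.21 FPKM with the non-targeting shRNA, a log2 ratio of 0.57. The citrate carrier SLC25A1, which feeds ACLY, was level at 32.1 FPKM with the DDX5 shRNA and 31.73 FPKM with the non-targeting shRNA. ABHD5, the activator of PNPLA2, stood at 2.4 FPKM with the DDX5 shRNA and 1.99 FPKM with the non-targeting shRNA, and HILPDA, its hypoxia-inducible inhibitor, at 15 FPKM with the DDX5 shRNA and 14.75 FPKM with the non-targeting shRNA.

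**Figure D4:**
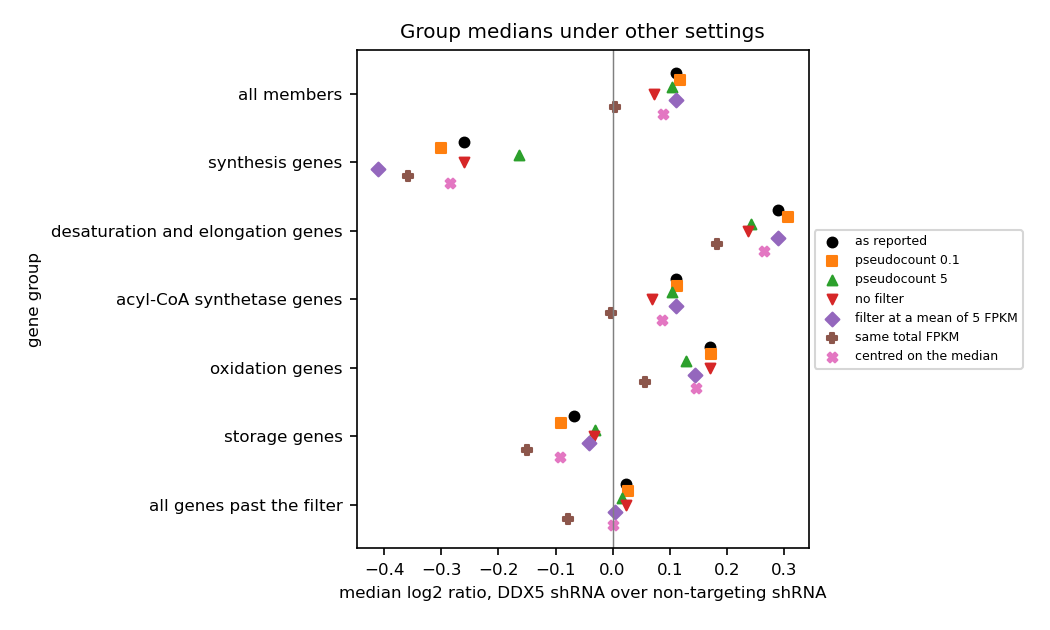
Median log2 ratio, DDX5 shRNA over non-targeting shRNA, of each gene group under 7 settings, 1 library per condition; each symbol is 1 setting. The synthesis genes stay below 0 and the oxidation and desaturation genes above 0 under all 7 settings, while the acyl-CoA synthetases reach -0.0025 at the same total FPKM, where the median of all genes is -0.08.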

How the data were processed

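RNA was sequenced from 1 culture per condition, so the depth of fragments and not a spread between cultures sets the precision given. Per the file headers, the authors deposited FPKM values, 1 column for each library, printed with 2 decimals. RSEM 1.2.8, Bowtie2, HISAT and hg19 are named in the submitters' processing notes without their roles. Annotation, strand setting and filters are not given in the sources. RSEM divides shared reads by estimation, so genes with copies can exchange values.

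Columns were assigned by sample title, with 0 columns left unused. Entrez numbers were named through RefSeq (GRCh38.p14), which matched 15289 of 16021 rows, and the promoter windows are RefSeq's. The software was pandas 2.3.3, scipy 1.17.1, numpy 2.4.6 and matplotlib 3.10.9 under Python 3.11.15. The log2 ratio was taken on FPKM + 1, and genes whose mean reached 1 FPKM entered counts. Calls were folds of 1.5 and 2, with no test. The 50 genes, the wider list of 117 and the rule for named genes (all 50, DDX5, fixed regulators and carriers, and genes of the wider list at least 2-fold apart) were chosen with earlier results of these data known. Of the genes that rule names, 1 is not reported here. Each value was recomputed with pseudocounts of 0.1 and 5, without the filter, with it at 5 FPKM, at the same total FPKM, and centred on the median.

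Depth was estimated from short genes with 1 transcript, whose FPKM times length, shortened by 125 bases, should fall on whole fragments. Within 0.15 of a whole number lay 71.7% of 99 genes in the DDX5 shRNA library and 70.5% of 112 genes in the non-targeting library; the step and the shortening are those that fitted these genes best. Fragment numbers used the median length of RefSeq-matched GENCODE 29 transcripts and are approximate. Shared sequence is the percentage of 50-base windows, every 10 bases, of a gene's longest protein-coding transcript that occur in a transcript of another gene. The ratio calculation was tested on simulated data.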

Additional observations from a re-analysis of the deposited data

How the results depend on the processing

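No paired analysis was possible because each condition has 1 library, and for the same reason no library could be left out. Of 60 comparisons of a group value with an alternative, 53 stayed within 0.1 in log2 ratio with the same sign, or within 1.5 times for a count, and 7 did not. At the same total FPKM the median of the 43 genes was 0.0041, that of the desaturation and elongation genes 0.18, that of the acyl-CoA synthetases -0.0025 and that of the oxidation genes 0.057. Rescaling moved the median of all genes from 0.02 to -0.08, so these medians moved with it. At the same total, ACLY and FABP5 joined FASN and PLIN3 as at least 1.5-fold lower, 4 in all, and HADHA and PNPLA2 dropped below 1.5-fold, while ACSL3, AGPAT1 and ETFDH changed sign near 0. With a pseudocount of 5, PLIN3 was the 1 gene at least 1.5-fold lower, because the larger pseudocount shrinks ratios, and 6 genes were 1.5-fold higher, without HADHA, DGAT2 and PNPLA2, beside 5.46% of all genes lower and 6.63% higher. With the filter at 5 FPKM, which removes ACACB, the median of the synthesis genes was -0.41. DECR1 was the 1 gene at least 2-fold higher under all 6 alternatives. Genes below 1 FPKM rest on few fragments, and the number of 1.5-fold differences between cultures of the same condition was not measured.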
